A study of Mus musculus with 18 samples.

Results

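The integrated stress response was followed through 36 genes in a brown adipocyte line. The genes were fixed by name: ATF4 and the stress factors around it, enzymes of serine, one-carbon and other amino acid metabolism, amino acid transporters, and 12 cytosolic tRNA synthetases. All 36 were found among the 45706 genes of the count table, each in a single row, and all 36 were among the 14788 genes that passed the filter on low counts. BMC is an immortalised line of mouse brown preadipocytes, here differentiated with insulin, triiodothyronine, dexamethasone, indomethacin and isobutylmethylxanthine and used on day 7. By their labels the 18 libraries are 6 of cells that were not induced (0 h) and 6 each taken 4 h and 24 h after 1 µM norepinephrine, the transmitter that switches on lipolysis and heat production in brown fat. Every group thus shares the line, the differentiation cocktail and the day. All 18 carry the same batch label. The labels name no genotype, do not say whether the line is 1 clone, and leave unsaid whether each library is a culture of its own. The p-values therefore describe only how these libraries scatter, which could be technical scatter.

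Titles also carry a replicate number from 1 to 6. In these data the libraries with numbers 1 and 4 resemble each other, as do those with 2 and 5 and those with 3 and 6. The members are therefore described both by labelled time and by these sets, written 1+4, 2+5 and 3+6, each of which holds 2 libraries of every labelled time. No label says what the sets are. They were noticed in the same data, so a difference between sets is no independent evidence that the sets exist, and counts of members are to be read against the shares of all genes given with them.

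The integrated stress response begins when a kinase phosphorylates the translation factor eIF2alpha after amino acid shortage, unfolded proteins in the endoplasmic reticulum, haem shortage, mitochondrial trouble or viral RNA. Most protein synthesis then slows, while the mRNA of the transcription factor ATF4 is translated better. ATF4 pairs with C/EBP proteins and other bZIP factors and switches on genes that import and make amino acids, charge tRNAs and defend the cell's redox state. In fat and muscle with mitochondrial stress the same pathway is known to raise the hormones FGF21 and GDF15.

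The DNA letters that ATF4 and C/EBP proteins are known to bind together, TGATGNAA, were searched on both strands of RefSeq promoter windows (GRCm38.p6, 250 bases before to 50 bases after a transcript start). A window was found for 30 of the 36 members. There was none for Cth, Slc7a5, Nars, Wars, Cars and Lars. The letters stood in 14 of the 30 (46.7%), and in 4.51% of the 27025 genes with a window. The lines below give the letters in capitals with 10 bases on either side, read 5′ to 3′ on the strand that carries them. Shown first are members with large differences between sets, then stress effectors, then Asns as an amino acid enzyme.
Slc7a11, upstream site: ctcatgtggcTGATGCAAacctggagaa
Slc7a11, downstream site: ggctgcatgaTGATGCAAattctccagg
Trib3: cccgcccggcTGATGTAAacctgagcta
Vldlr: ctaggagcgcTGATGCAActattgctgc
Fgf21: cctggacggaTGATGCAAtgggggggtc
Chac1: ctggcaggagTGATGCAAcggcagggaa
Asns: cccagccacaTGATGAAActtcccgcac

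The other lines are of the members that went against the common direction of the sets, as given below.
Tars: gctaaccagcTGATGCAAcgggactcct
Pycr1: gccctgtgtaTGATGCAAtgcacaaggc
Pck2: tgtaagatacTGATGTAActttgaaggc

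These short stretches sit in longer windows. For Slc7a11 the whole window is chr3:50443564-50443863 on the minus strand, given 5′ to 3′ on the gene's strand. It holds the letters once on each strand, so the second run of capitals is their reverse complement.
Slc7a11 window: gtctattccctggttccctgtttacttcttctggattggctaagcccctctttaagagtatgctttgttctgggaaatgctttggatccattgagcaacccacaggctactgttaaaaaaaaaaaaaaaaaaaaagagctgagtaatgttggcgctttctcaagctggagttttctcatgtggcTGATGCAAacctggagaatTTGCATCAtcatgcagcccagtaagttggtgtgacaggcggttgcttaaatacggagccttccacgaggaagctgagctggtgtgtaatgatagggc
For Tars the window is chr15:11399609-11399908, also on the minus strand, with a single site whose capitals are again the reverse complement.
Tars window: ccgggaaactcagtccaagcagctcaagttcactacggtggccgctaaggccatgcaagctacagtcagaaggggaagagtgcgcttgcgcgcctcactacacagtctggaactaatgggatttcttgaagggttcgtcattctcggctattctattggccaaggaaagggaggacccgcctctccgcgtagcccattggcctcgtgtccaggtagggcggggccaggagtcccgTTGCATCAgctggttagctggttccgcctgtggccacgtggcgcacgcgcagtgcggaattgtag

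In all, 16 sites lay in the windows of 14 members. The map of sites by distance from the start draws 13 of these members, with sites from base -200 (Vldlr) to base 15 (Trib3). By role, the letters stood in 5 of 8 synthetase windows, 3 of 4 windows of other amino acid and phosphoenolpyruvate enzymes, 3 of 5 of stress effectors, 2 of 5 of transcription factors and 1 of 3 of transporters. They were in 0 of 5 windows of the serine and one-carbon enzymes, in 0 of 8 of the cytosolic synthetases that are not members and their scaffold, and in 0 of 14 of the mitochondrial synthetases. The cAMP response element TGACGTCA, also searched on both strands, stood in 0 member windows and in 2.03% of genes. A match is a description of the letters, not a measured binding site, and no match says only that the letters are not in that window.

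**Figure D1:**
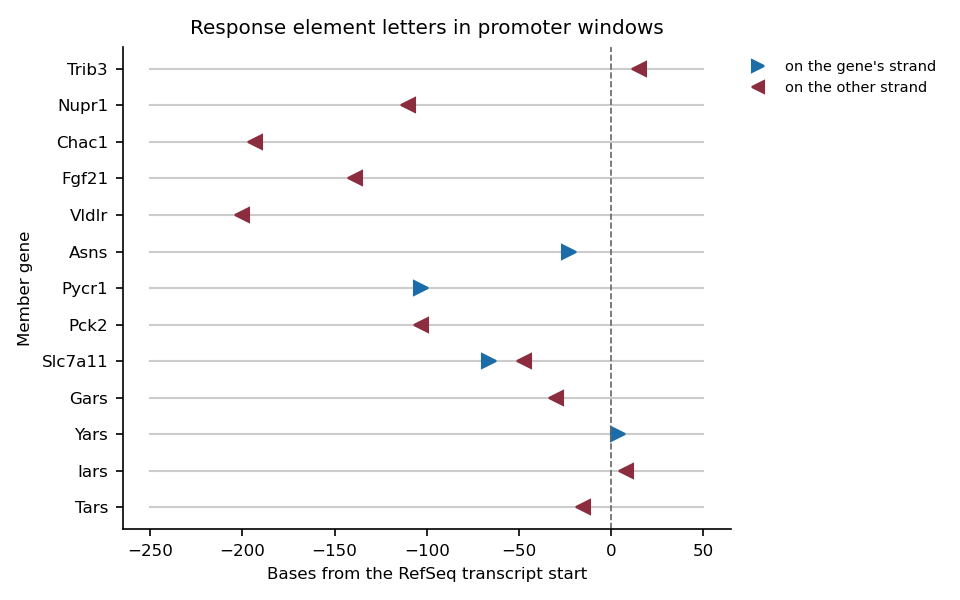
Positions of the letters TGATGNAA in the promoter windows of 13 of the 14 members that hold them. The x axis is the distance in bases from the RefSeq transcript start (dashed line), and each triangle is the first base of a site, pointing along the strand that carries the letters. Slc7a11 has 2 sites, and the others drawn have 1.

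Libraries held 7010742 to 26501223 counts. All values below are CPM, counts relative to the scaled total of the library, and a log2 value is a difference in level between groups of libraries. Library 24 h replicate 5 stood apart. It had the lowest total, and 41.5% of its counts lay in genes that collect ribosomal RNA, against 6.78% to 10.6% in the others. Levels of 12 genes listed as brown adipocyte markers were looked up, with no other fat for comparison. Adipoq, Plin1, Fabp4, Pparg, Cidec, Lipe and Ppargc1a were all above 100 CPM in every library. Ucp1 ranged from 1.08 to 18 CPM, Cidea from 12.5 to 17.2 and Prdm16 from 6.62 to 17.6. Dio2 reached at most 2.75 CPM and was at 0 in 1 library, and Elovl3 lay below the filter. Adgre1 (macrophages) and Cdh5 (endothelium) were at 0 in all 18 libraries.

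By labelled time no member passed the test. Atf4 had 84.4 to 104 CPM at 0 h, 85.8 to 111 at 4 h and 78.0 to 106 at 24 h, and the 3 ranges overlapped almost wholly. Its log2 difference from 0 h was 0.05 at 4 h (95% interval -0.11 to 0.21) and -0.01 at 24 h (-0.17 to 0.15), with an edgeR adjusted p of 1 for both. Slc7a11, the cystine transporter, ran from 9.91 to 68.6 CPM within the 0 h libraries alone. It ran from 10.2 to 67.3 at 4 h and from 9.64 to 68.6 at 24 h, while the means of the 3 times were 34.8, 34.9 and 33.6 CPM. Asns, which makes asparagine and is a standard readout of amino acid shortage, averaged 45.8 ± 7.32 CPM (SD, n = 6) in the 0 h libraries. Its mean was 49.9 ± 5.86 CPM after 4 h and 47.1 ± 4.67 CPM after 24 h, with overlapping ranges.

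In each of the 3 comparisons of times edgeR called 0 of the 36 members, against 0% of all genes, and no member had an unadjusted p under 0.05. Over all genes, 173, 158 and 137 had an unadjusted p under 0.05 at 4 h against 0 h, 24 h against 0 h and 24 h against 4 h. DESeq2 and limma-voom also called 0 genes in each. With 0% of all genes called, 0 of 36 is no result about these members. Whether the labelled times match the treatment of each library cannot be settled from the sources used here. The signs leaned together: 33 of 36 members had a positive log2 difference at 4 h against 0 h (53.8% of all genes), 16 at 24 h against 0 h (48.0%) and 3 at 24 h against 4 h (46.7%). Those leanings were small, with medians of 0.05, -0.00 and -0.05.

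Libraries with the same replicate number resembled each other across times, as did those with the other number of their set. The comparison was therefore repeated with the number as a block. Members called stayed at 0, while 0%, 0.00676% (1 gene, not a member) and 0% of all genes were called. The lowest adjusted p of a member was 0.292 at 4 h against 0 h, 0.401 at 24 h against 0 h and 0.921 at 24 h against 4 h. At 4 h against 0 h, 5 of 36 members had an unadjusted p under 0.05, beside 9.88% of all genes. They were Iars (log2 0.10), Asns (0.13), Psph (0.10), Nupr1 (0.13) and Gdf15 (0.19), and their edgeR adjusted p ran from 0.292 to 0.484. At 24 h against 0 h there were 2 such members, Gdf15 (0.20) and Vldlr (-0.12), beside 7.81% of all genes. At 24 h against 4 h there were 6 beside 5.12% of all genes, namely Vldlr (-0.14), Iars (-0.10), Trib3 (-0.16), Sesn2 (-0.13), Wars (-0.10) and Gars (-0.07), each with an edgeR adjusted p of 0.921. With the block the intervals were narrow: outside Fgf21, whose counts were near 0, the widest bound of any member in the 3 comparisons was 0.38 on the log2 scale (Gdf15, 24 h against 0 h).

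**Figure D2:**
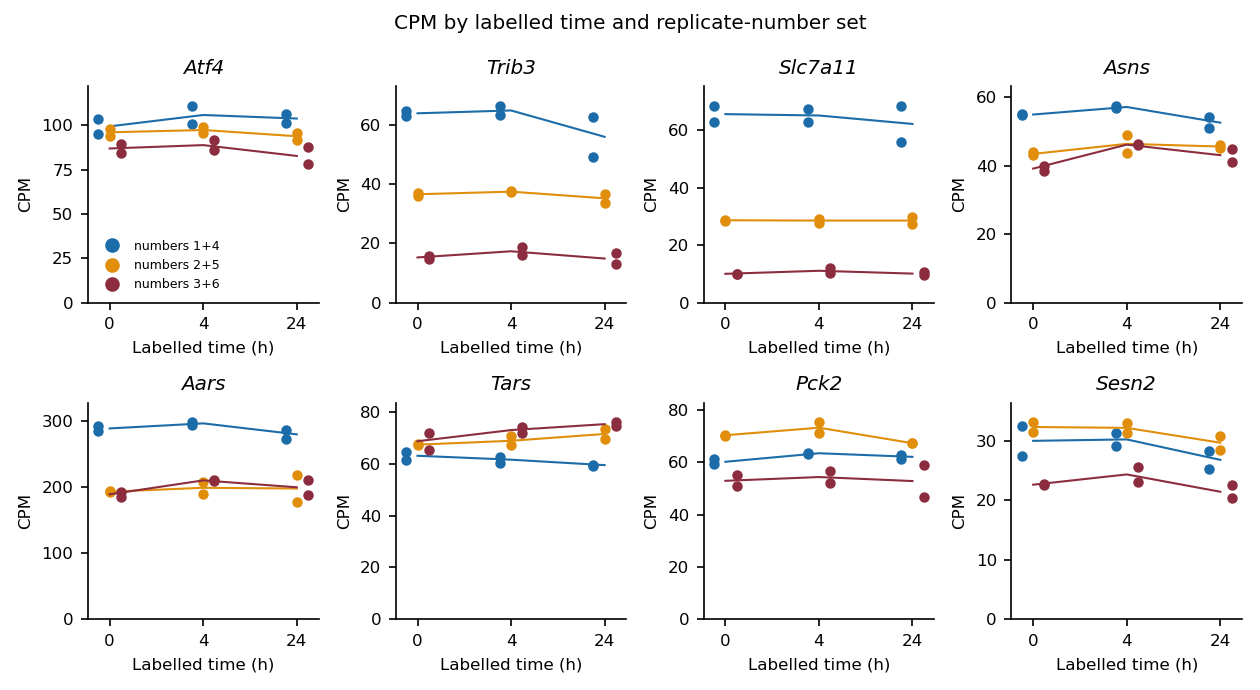
CPM of 8 members by labelled time, 1 panel per gene. The x axis gives the labelled time in hours, evenly spaced, and the y axis the CPM from 0. Points are single libraries coloured by set, and lines join the means of 2 libraries. For Slc7a11 and Trib3 the 3 sets lie in separate bands that run nearly flat over the labelled times.

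The members sorted by set, not by labelled time. Over the 18 libraries the set accounted for a median of 88.2% of a member's variance in log2 CPM, and the labelled time for 1.95%. For all genes these medians were 62.7% and 3.78%. The set took the larger share in 36 of 36 members and over 50% of the variance in 35, the exception being Shmt2 with 24.1%. Among all genes 62% had a set share over 50%.

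Set 1+4 was the high one. The mean of a member was highest there in 32 of 36 members, beside 34.9% of all genes. The exceptions were Sesn2 and Pck2, highest in 2+5, and Pycr1 and Tars, highest in 3+6. In 22 members the order was 1+4 above 2+5 above 3+6, an order held by 17.4% of all genes, and in 10 it was 1+4 above 3+6 above 2+5 (17.5% of all genes).

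Compared with 1+4, set 2+5 was lower in 31 members (29.9% of all genes were lower) and higher in 3 (29.6% of all genes), with Chac1 and Shmt2 not called. The median log2 difference of the 36 was -0.32. At least 1.5-fold lower were 9 members (9.03% of all genes), and in 27 every library of 2+5 lay below every library of 1+4 (18% of all genes). Set 3+6 was lower than 1+4 in 29 members (29.5% of all genes) and higher in 1, Tars (30.2% of all genes), with a median of -0.48. There 16 members were at least 1.5-fold lower (8.05% of all genes), and 27 had no overlap between the groups (19.5% of all genes). Not called were Shmt2, Pycr1, Nars, Sars, Lars and Mars.

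Sets 3+6 and 2+5 differed in a more mixed way. Lower in 3+6 were 15 members (28.5% of all genes) and higher were 6 (28.6% of all genes), namely Pycr1, Nars, Yars, Iars, Lars and Mars. At least 1.5-fold lower were 6 members (6.64% of all genes), and 13 were lower with no overlap (15.5% of all genes). Here the count of members lower lay nearer to the background than in the comparisons with 1+4. The median of -0.08 turned to 0.19 when libraries were scaled by their totals alone.

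These directions are relative to a typical gene. Scaling by library totals moved the median log2 difference of all genes to -0.09, 0.17 and 0.25 in the 3 comparisons of sets. The members called then were 18, 16 and 11 of 36, beside 3788, 4536 and 5130 of all 14788 genes. Relative to those medians the 36 members still had medians of -0.33, -0.48 and -0.06. The members called whose sign turned with this scaling were Iars at 3+6 against 1+4, and Atf4, Gdf15, Aldh18a1 and Eprs at 3+6 against 2+5. The TMM factor by which a library's total was scaled was 0.430 for 24 h replicate 5, the library of 2+5 rich in ribosomal RNA. The median factor was 1.01 in 1+4, 1.04 in 2+5 and 1.12 in 3+6. Scaling by totals leaves these factors out. How far the shifts and turned signs in comparisons with 2+5 come from that library was not tested.

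**Figure D3:**
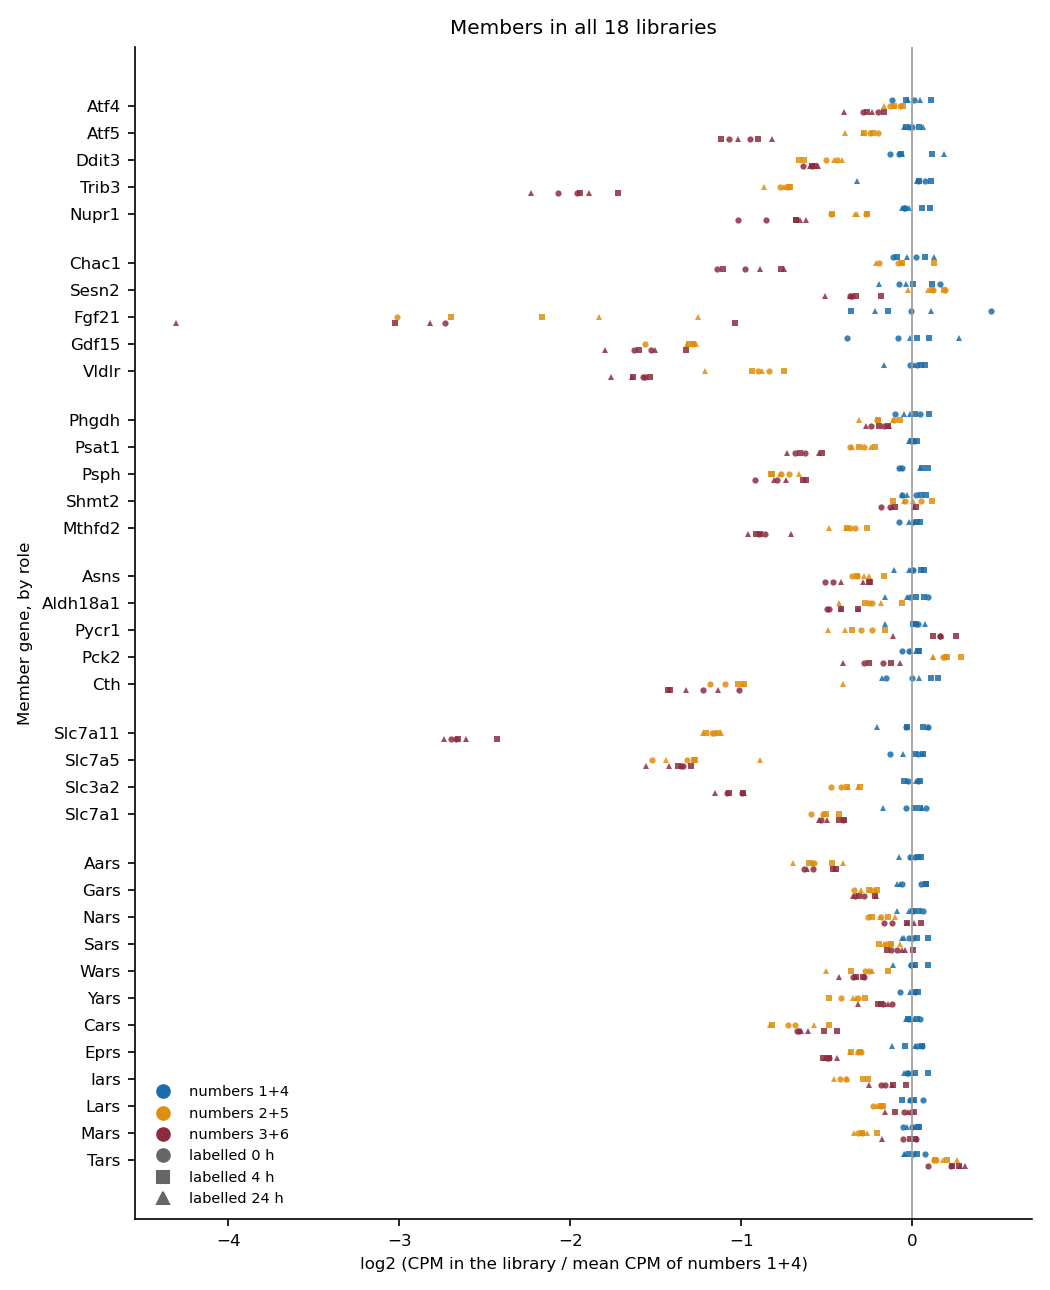
All 36 members in all 18 libraries. The x axis is the log2 ratio of a library's CPM to the mean CPM of 1+4, and genes stand in rows grouped by role. Colour gives the set and shape the labelled time. The 2 libraries in which Fgf21 was at 0 are not drawn. Slc7a11, Trib3 and Vldlr show 3 separated bands, while Shmt2 shows the sets on top of each other.

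**Figure D4:**
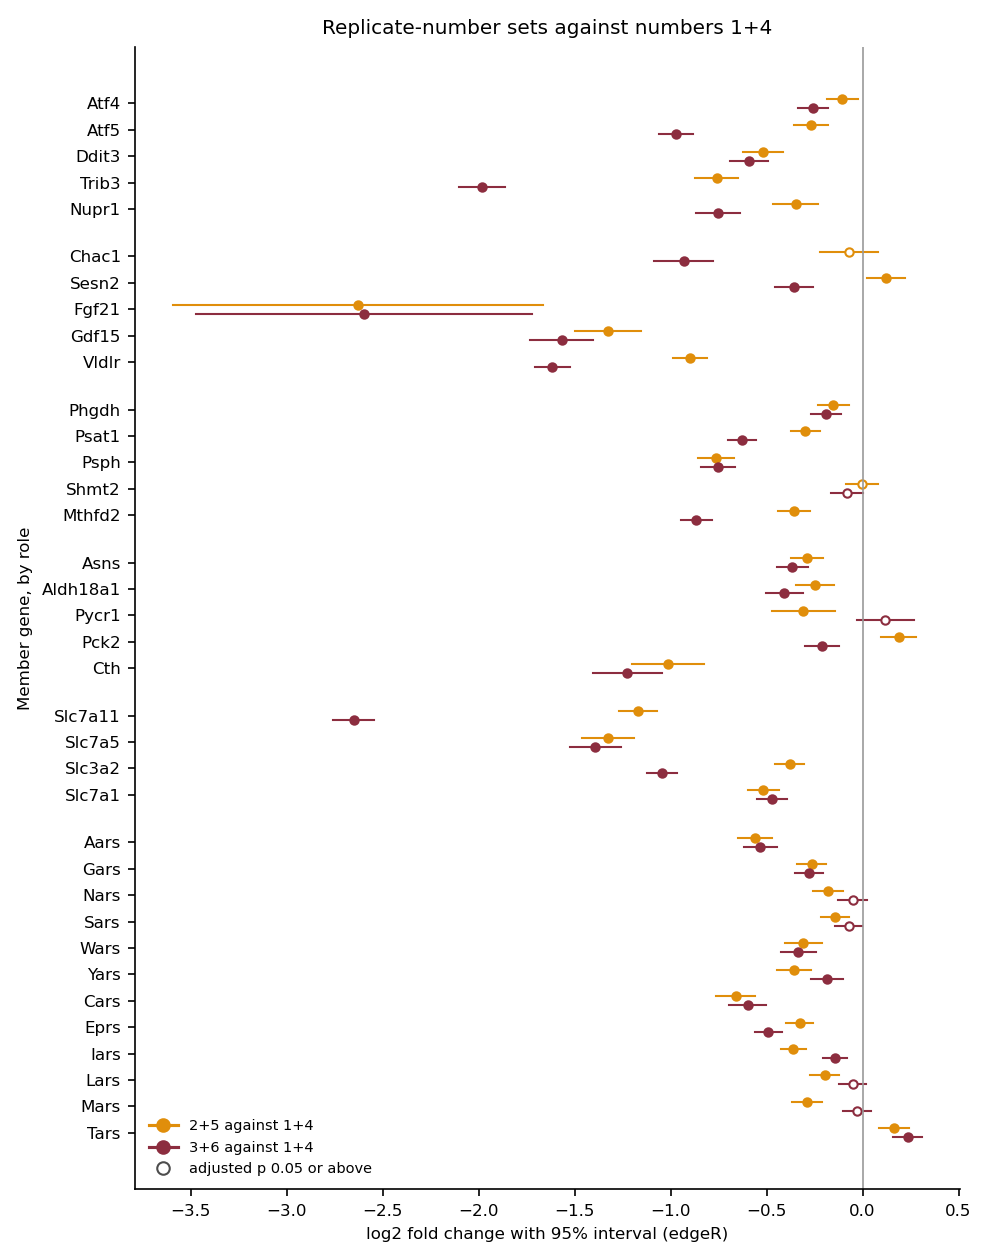
Log2 difference of each member in 2+5 and in 3+6 against 1+4, with 95% intervals from edgeR. The x axis is the log2 difference in level, rows are genes grouped by role, and open symbols have an adjusted p of 0.05 or more. Most members lie left of 0 in both comparisons, Tars lies right of 0 in both, and Sesn2 and Pck2 lie right of 0 in 2+5 and left of it in 3+6.

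Among the transcription factors, the regulator Trib3 had the largest differences in all 3 comparisons. Atf4 (chromosome 15, 80255184 to 80257541, mm10) had 95.1 to 111 CPM in 1+4 (median 102), 91.9 to 99.1 in 2+5 (95.7) and 78.0 to 91.9 in 3+6 (86.7). The 3 sets stepped down slightly and 3+6 lay wholly below the others, its highest library just under the lowest of 2+5. Its log2 difference was -0.11 in 2+5 against 1+4 (SE 0.04, edgeR adjusted p = 0.021) and -0.26 in 3+6 against 1+4 (SE 0.04, adjusted p = 1.68e-06). The first of these calls was lost without 0 h replicate 2, 4 h replicate 4, 24 h replicate 1 or 24 h replicate 2 (adjusted p = 0.0589, 0.0669, 0.0881 and 0.0544). The difference of -0.15 between 3+6 and 2+5 became 0.12 with library totals. ATF4 activity is set mainly by translation, which these mRNA levels do not measure.

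Trib3, a pseudokinase induced by ATF4 that binds and restrains it (chromosome 2, 152337422 to 152344032), had 49.3 to 66.6 CPM in 1+4 (median 63.3), 33.8 to 37.6 in 2+5 (36.9) and 13.2 to 18.7 in 3+6 (15.9). No 2 sets overlapped. The level was 1.69-fold lower in 2+5 than in 1+4 and 3.95-fold lower in 3+6 (log2 -1.98, SE 0.06, edgeR adjusted p = 2.53e-20). Ddit3, which encodes the stress factor CHOP, had 44.8 to 55.7 CPM in 1+4 (median 46.9), 30.9 to 36.8 in 2+5 (35.1) and 31.5 to 33.4 in 3+6 (32.6). Set 1+4 lay above both others, which overlapped, with log2 differences of -0.52, -0.59 and, not called, -0.07.

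Atf5, a bZIP factor translated in the same manner as ATF4, had 116 ± 3.58 CPM in 1+4, 95.7 ± 4.33 in 2+5 and 58.7 ± 4.49 in 3+6 (SD, n = 6). It was close to Atf4 in direction and larger in size in 3+6, with log2 differences of -0.27 and -0.97 against 1+4. Nupr1, a small stress-induced chromatin protein, had 23.8 ± 1.14 CPM in 1+4, 18.7 ± 1.20 in 2+5 and 14.2 ± 1.45 in 3+6. All 5 genes of this group were lower in 2+5 and in 3+6 than in 1+4 (29.9% and 29.5% of all genes), and 4 of 5 were lower in 3+6 than in 2+5 (28.5% of all genes).

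The stress effectors and secreted factors had the lowest median log2 differences from 1+4 of the 6 roles, -0.90 in 2+5 and -1.57 in 3+6. Gdf15, a hormone of cell stress that curbs appetite, had 15.9 to 25.1 CPM in 1+4 (median 20.8), 7.01 to 8.62 in 2+5 (8.44) and 5.96 to 8.27 in 3+6 (7.02). Set 1+4 stood apart above the others. The level was 2.51-fold lower in 2+5 (log2 -1.33, SE 0.08) and 2.96-fold lower in 3+6 (log2 -1.57, SE 0.08). The difference of -0.24 between 3+6 and 2+5 (edgeR adjusted p = 0.0306) was lost without 0 h replicate 5, 4 h replicate 3 or 24 h replicate 6 (adjusted p = 0.111, 0.0671 and 0.0903). With library totals it was 0.011.

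Fgf21, the other stress hormone, was near the detection limit, with 0 to 24 counts per library. It had 0.618 to 1.09 CPM in 1+4 (median 0.752), 0 to 0.332 in 2+5 (0.149) and 0 to 0.385 in 3+6 (0.105). Every library of 1+4 was above every other library. Fgf21 passed the filter on low counts only through 1+4, so this separation and its calls are description, not support for a difference. The fitted log2 differences were -2.63 (95% interval -3.59 to -1.66) and -2.60 (-3.47 to -1.72), and between 3+6 and 2+5 0.03 (-1.26 to 1.32), so at this depth those 2 sets could not be ordered.

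Vldlr, the very low density lipoprotein receptor, had 194 ± 11.2 CPM in 1+4, 103 ± 10.7 in 2+5 and 63.2 ± 3.48 in 3+6, with no overlap between any 2 sets. Its log2 differences were -0.90 and -1.62 against 1+4 and -0.72 between 3+6 and 2+5. Chac1, an enzyme that breaks down glutathione, had 10.6 to 12.5 CPM in 1+4 (median 11.4), 9.86 to 12.5 in 2+5 (10.8) and 5.17 to 6.79 in 3+6 (5.98). Here 2+5 lay with 1+4 (log2 -0.07, 95% interval -0.22 to 0.08), and 3+6 lay below both (log2 -0.93 and -0.86).

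Sesn2, a leucine sensor that restrains mTORC1, had 25.3 to 32.5 CPM in 1+4 (median 28.7), 28.5 to 33.2 in 2+5 (31.5) and 20.4 to 25.6 in 3+6 (22.6). Its highest set was 2+5, though that set overlapped 1+4. The log2 difference was 0.12 (SE 0.05, edgeR adjusted p = 0.0339), and the call was lost with DESeq2 (0.0571) and without the filter on low counts (0.0784). It was also lost without 0 h replicate 1 or 5, 4 h replicate 1, or 24 h replicate 2 or 4, with adjusted p from 0.0616 to 0.121. Set 3+6 was lower than both others, with log2 differences of -0.36 against 1+4 and -0.48 against 2+5.

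The serine pathway turns a glycolysis intermediate into serine in 3 steps, by Phgdh, Psat1 and Psph, and the mitochondrial enzymes Shmt2 and Mthfd2 then pass serine's carbon to folate. The steps differed between sets by unequal amounts. Psat1, the aminotransferase, had 149 to 154 CPM in 1+4 (median 150.5), 117 to 130.0 in 2+5 (123) and 90.8 to 105 in 3+6 (96.6). No sets overlapped, and its log2 differences were -0.30, -0.63 and -0.33. Psph, the final phosphatase, had 46.7 ± 2.42 CPM in 1+4, 27.6 ± 1.22 in 2+5 and 27.8 ± 2.16 in 3+6 (SD, n = 6). Its log2 differences from 1+4 were -0.76 and -0.75, and the interval between 3+6 and 2+5 was -0.09 to 0.11.

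Phgdh, the entry enzyme of the pathway, had 87.3 to 100.3 CPM in 1+4 (median 93.8), 75.6 to 89.1 in 2+5 (84.1) and 77.6 to 85.5 in 3+6 (82.7). Its sets lay close together, with log2 differences of -0.15 (SE 0.04, edgeR adjusted p = 0.00139) and -0.19 (SE 0.04, adjusted p = 9.19e-05). Mthfd2, which oxidises folate in mitochondria, had 80.3 to 87.5 CPM in 1+4 (median 85.5), 60.7 to 70.5 in 2+5 (65.6) and 43.7 to 51.8 in 3+6 (45.7). It stepped down without overlap, with log2 differences of -0.36 and -0.87 against 1+4 and -0.51 between 3+6 and 2+5. Shmt2, which hands serine's carbon to folate just before Mthfd2, had 129.7 ± 5.27 CPM in 1+4, 129 ± 7.30 in 2+5 and 122 ± 6.98 in 3+6, and none of its 3 differences was called (95% intervals -0.09 to 0.08, -0.16 to 0.00 and -0.16 to 0.01). In all, 4 of the 5 genes were lower than 1+4 in both other sets (29.9% and 29.5% of all genes), and 2 of 5 were lower in 3+6 than in 2+5 (28.5%). The median of the 5 in the latter comparison, -0.08, became 0.20 with library totals.

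The other enzymes of amino acids and phosphoenolpyruvate went different ways. Asns had 51.0 to 57.5 CPM in 1+4 (median 54.9), 43.0 to 49.0 in 2+5 (44.4) and 38.4 to 46.2 in 3+6 (43.0). Set 1+4 was above both others, which overlapped, with log2 differences of -0.29 and -0.37. Between 3+6 and 2+5 the difference of -0.08 was not called with all libraries, and it was called without 4 h replicate 2 or 24 h replicate 3 (edgeR adjusted p = 0.0437 and 0.0421). Cth, which makes cysteine from cystathionine, had 13.6 ± 1.26 CPM in 1+4, 7.18 ± 1.55 in 2+5 and 5.73 ± 0.664 in 3+6. It was 2.02-fold lower in 2+5 and 2.34-fold lower in 3+6 than in 1+4.

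Pck2, the mitochondrial phosphoenolpyruvate carboxykinase, had 59.3 to 63.6 CPM in 1+4 (median 62.1), 67.3 to 75.4 in 2+5 (70.4) and 46.8 to 58.9 in 3+6 (53.5). The 3 sets were separate, with 2+5 on top. Its log2 difference was 0.19 in 2+5 (SE 0.04, edgeR adjusted p = 0.000598) and -0.21 in 3+6 (SE 0.04, adjusted p = 0.000133) against 1+4. Of the enzymes of proline synthesis, Aldh18a1, the first, had 67.8 ± 4.20 CPM in 1+4, 57.7 ± 4.79 in 2+5 and 51.1 ± 2.80 in 3+6. Its log2 differences from 1+4 were -0.25 and -0.41. Pycr1, the last, had 5.84 to 6.89 CPM in 1+4 (median 6.62), 4.64 to 5.85 in 2+5 (5.21) and 6.04 to 7.78 in 3+6 (7.30). It was lowest in 2+5 (log2 -0.31 against 1+4), and 3+6 lay above 2+5 by 0.43 with no overlap. In this group 4 of 5 genes were lower in 2+5 than in 1+4 (29.9% of all genes) and 1 was higher (29.6%). In 3+6, 4 of 5 were lower (29.5%) and Pycr1 was not called.

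Among the transporters, Slc7a11 had the lowest log2 value of all 36 members in 3+6 against 1+4. Slc7a11, the light chain of the exchanger that imports cystine for glutathione (chromosome 3, 49892526 to 50443614, mm10), had 55.9 to 68.6 CPM in 1+4 (median 65.2), 27.5 to 29.6 in 2+5 (28.7) and 9.64 to 12 in 3+6 (10.2). The 3 sets formed narrow bands far apart. The level was 2.25-fold lower in 2+5 than in 1+4 (log2 -1.17, SE 0.05, edgeR adjusted p = 1.41e-17). It was 6.28-fold lower in 3+6 than in 1+4 (log2 -2.65, SE 0.05, adjusted p = 1.85e-24) and 2.79-fold lower in 3+6 than in 2+5. Within each set the means of the labelled times were close, from 62.2 to 65.7 CPM in 1+4, 28.6 to 28.7 in 2+5 and 10.0 to 11.1 in 3+6.

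Slc7a5, the light chain of the leucine transporter LAT1, had 129.8 to 148 CPM in 1+4 (median 145), 49.5 to 76.6 in 2+5 (57.8) and 48.2 to 57.9 in 3+6 (55.2). Set 1+4 lay far above the other sets, which overlapped. Its log2 differences were -1.32 (SE 0.06) and -1.39 (SE 0.06) against 1+4 and, not called, -0.07 between 3+6 and 2+5. Slc3a2, the heavy chain that both light chains need, had 205 ± 5.65 CPM in 1+4, 158 ± 6.98 in 2+5 and 99.6 ± 4.65 in 3+6. It stepped down in the order seen for Slc7a11 (log2 -0.38 and -1.04 against 1+4). Slc7a1, the transporter of arginine and lysine, had 122 ± 7.66 CPM in 1+4, 85.5 ± 3.07 in 2+5 and 88.1 ± 3.99 in 3+6, and was lower than 1+4 in both other sets, which differed by 0.05 (95% interval -0.03 to 0.13, not called). All 4 transporters were lower in 2+5 and in 3+6 than in 1+4, beside 29.9% and 29.5% of all genes.

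The 12 synthetases attach amino acids to their tRNAs, and their median difference in 3+6 against 1+4 was the nearest to 0 of the 6 roles. In 2+5, 11 of 12 were lower than in 1+4 (29.9% of all genes) and 1, Tars, was higher, with a median log2 difference of -0.30. In 3+6, 7 of 12 were lower than in 1+4 (29.5% of all genes), Tars was higher and 4 were not called, with a median of -0.16. That median was -0.00 with library totals, when the median of all genes was 0.17. Between 3+6 and 2+5 the direction turned, with 5 higher (Nars, Yars, Iars, Lars and Mars, beside 28.6% of all genes) and 1 lower (Eprs, beside 28.5%), and this last one was higher by 0.11 with library totals.

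Aars, the alanine enzyme (chromosome 8, 111033144 to 111057664), had 273 to 298 CPM in 1+4 (median 289), 178 to 217 in 2+5 (193) and 185 to 211 in 3+6 (201). Set 1+4 stood above the other sets, which overlapped, with log2 differences of -0.56 (SE 0.04) and -0.53 (SE 0.04). Wars, the tryptophan enzyme, had 27.8 to 32 CPM in 1+4 (median 30.1), 21.2 to 27.2 in 2+5 (25) and 22.3 to 24.8 in 3+6 (23.9). Its pattern was like that of Aars at a smaller size, -0.31 and -0.34. Cars, the cysteine enzyme, had 38.4 ± 0.854 CPM in 1+4, 23.9 ± 2.31 in 2+5 and 25.5 ± 1.71 in 3+6 and the largest differences of the 12, -0.66 and -0.60. Gars, the glycine enzyme, had 110.4 ± 6.13 CPM in 1+4, 92.3 ± 3.37 in 2+5 and 90.7 ± 3.72 in 3+6, and was lower than 1+4 in both other sets (-0.26 and -0.28).

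The other synthetases apart from Eprs and Tars had their lowest mean in 2+5. Mars, the methionine enzyme, had 63.7 to 67.8 CPM in 1+4 (median 66.4), 52.3 to 57.4 in 2+5 (53.9) and 58.5 to 67.1 in 3+6 (66.2). Set 2+5 lay below both others, which overlapped, with log2 differences of -0.29 against 1+4 and 0.26 for 3+6 against 2+5. Iars, the isoleucine enzyme, had 89.0 to 98.0 CPM in 1+4 (median 91.3), 67.0 to 77.0 in 2+5 (70.5) and 77.2 to 89.9 in 3+6 (83.7). It too was lowest in 2+5, with log2 differences of -0.36, -0.14 and 0.22 in the 3 comparisons, the second of them 0.020 with library totals. Lars, the leucine enzyme, had 58.6 ± 1.60 CPM in 1+4, 51.3 ± 0.748 in 2+5 and 56.5 ± 2.51 in 3+6. Nars, the asparagine enzyme, had 88.0 ± 3.26 CPM in 1+4, 77.5 ± 3.07 in 2+5 and 85.2 ± 4.70 in 3+6. Yars, the tyrosine enzyme, had 42.1 ± 1.06 CPM in 1+4, 32.8 ± 1.71 in 2+5 and 37.0 ± 1.71 in 3+6. Of Lars, Nars and Yars, only Yars was called lower in 3+6 than in 1+4. Sars, the serine enzyme, had 102 ± 3.96 CPM in 1+4, 92.7 ± 2.71 in 2+5 and 96.9 ± 3.82 in 3+6 and was called only in 2+5 against 1+4 (-0.14).

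Eprs, which charges both glutamate and proline tRNAs, had 328 ± 15 CPM in 1+4, 261 ± 4.81 in 2+5 and 233 ± 4.66 in 3+6. It stepped down without overlap (log2 -0.33 and -0.49 against 1+4). Tars, the threonine enzyme (chromosome 15, 11382301 to 11399665), had 59.4 to 64.8 CPM in 1+4 (median 61.1), 67.2 to 73.6 in 2+5 (68.7) and 65.6 to 76.2 in 3+6 (73.1). Its lowest set was 1+4, with no overlap with the others. Its log2 difference was 0.16 in 2+5 (SE 0.04, edgeR adjusted p = 0.000512) and 0.23 in 3+6 (SE 0.04, adjusted p = 3.47e-06). Between 3+6 and 2+5 it differed by 0.07 (adjusted p = 0.115), and by 0.10 without 0 h replicate 3 (0.0293).

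Synthetase genes outside the 36, and the further lists that follow, were counted in the same way. Of all genes 59.5%, 59.7% and 57.1% were called in the 3 comparisons, split almost evenly between higher and lower, so a list with a like share called is no different from the background by its count. Of 11 other cytosolic synthetases and scaffold genes, 4 were higher and 2 lower in 2+5 than in 1+4, 7 were higher and 0 lower in 3+6 than in 1+4, and 6 were higher and 0 lower in 3+6 than in 2+5. Their medians were 0.08, 0.26 and 0.16, the first of them -0.02 with library totals, beside -0.30, -0.16 and 0.07 for the 12. The clearest were the scaffold genes Aimp2 (0.49 and 0.46 against 1+4) and Eef1e1 (0.38 and 0.69), and Rars, the arginine enzyme (0.36 in 3+6 against 1+4). Of 17 mitochondrial synthetases, 7 were higher and 3 lower in 2+5 than in 1+4, 8 higher and 3 lower in 3+6 than in 1+4, and 2 higher and 5 lower in 3+6 than in 2+5. The share of these 17 called against 1+4 is near that of all genes. Ears2, Mars2 and Wars2 led with 0.62, 0.50 and 0.49 in 2+5 against 1+4. The difference between the lists was not itself tested.

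**Figure D5:**
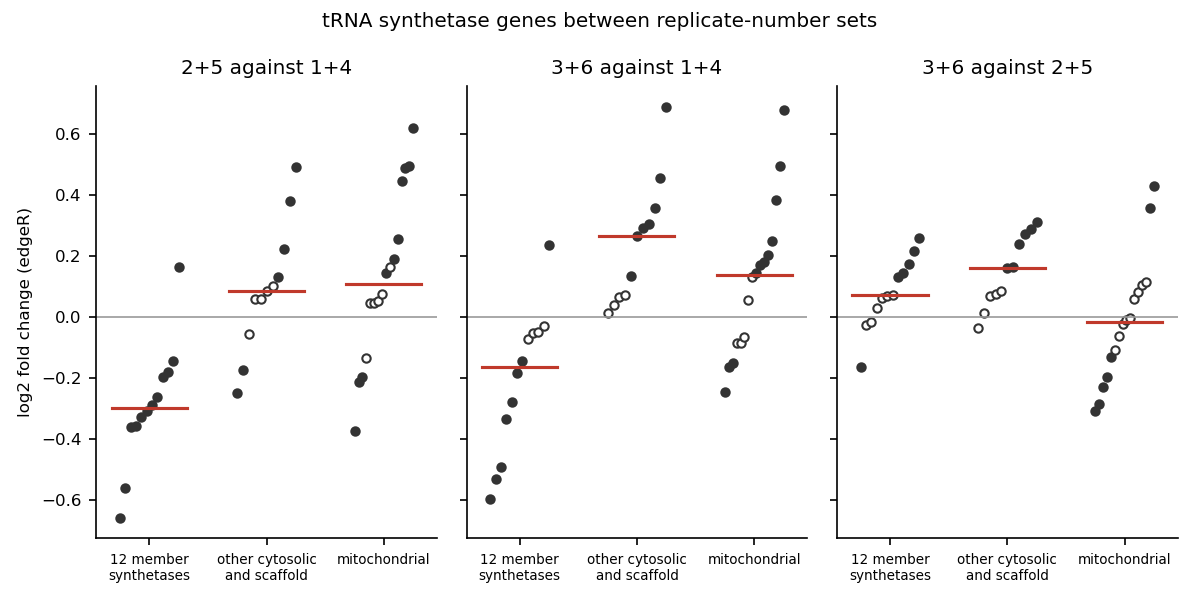
Log2 differences of tRNA synthetase genes in the 3 comparisons of sets. Each point is a gene, filled where the edgeR adjusted p was under 0.05, and red lines are medians. The columns are the 12 member synthetases, 11 other cytosolic synthetases and scaffold genes, and the mitochondrial synthetases without Lars2, which library 24 h replicate 5 dominates. Member points lie mostly below 0 in the first panels, while the other cytosolic points lie mostly above; with library totals the median of those others turns to -0.02 in 2+5 against 1+4.

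Genes upstream of ATF4 were mixed. Of 16 genes of eIF2alpha kinases, phosphatases and the exchange factor eIF2B, 4 were higher and 7 lower in 2+5 than in 1+4, 7 higher and 6 lower in 3+6 than in 1+4, and 5 higher and 5 lower in 3+6 than in 2+5. Ppp1r15a, the inducible phosphatase subunit (GADD34) that ends the response, had 67.3 ± 7.69 CPM in 1+4, 28.0 ± 1.43 in 2+5 and 20.6 ± 1.53 in 3+6 (SD, n = 6). It followed the order of Trib3, with log2 differences of -1.26 and -1.71. Ppp1r15b, its constitutive counterpart, was also lower (log2 -0.86 and -0.79). Eif2ak3, the kinase PERK, was lower too (log2 -0.34 and -0.59).

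Partner factors of ATF4 were called about as often as all genes in 2+5 against 1+4. Of 8 tested, 2 were higher and 3 lower in 2+5 than in 1+4, 1 higher and 5 lower in 3+6 than in 1+4, and 1 higher and 6 lower in 3+6 than in 2+5. Atf3, a stress-induced repressor that ATF4 switches on, had 39.5 ± 4.58 CPM in 1+4, 12.6 ± 1.74 in 2+5 and 6.09 ± 0.558 in 3+6. Its log2 differences were -1.63 and -2.69, where those of Slc7a11 were -1.17 and -2.65. Jund was lower (log2 -0.95 and -1.27), and Batf3, with at most 1.23 CPM, was lower in 2+5 (-0.72) and not called in 3+6 against 1+4.

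Other reported ATF4 targets were more often lower than higher by count. Of 19 tested, 5 were higher and 11 lower in 2+5 than in 1+4, 4 higher and 15 lower in 3+6 than in 1+4, and 5 higher and 12 lower in 3+6 than in 2+5. The medians were -0.28, -0.50 and -0.21, the last one 0.06 with library totals. Ero1l, which forms disulfide bonds in the endoplasmic reticulum, had 779.6 ± 119.8 CPM in 1+4, 165 ± 13.6 in 2+5 and 46.4 ± 3.60 in 3+6, with log2 differences of -2.24 and -4.07. Aldh1l2, a mitochondrial folate enzyme, was higher in 2+5 (log2 0.18) and lower in 3+6 (-1.46) than in 1+4. Bcat1, which transaminates branched-chain amino acids, was higher by 1.63 and 2.16.

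Other amino acid genes went both ways. Of 17 cytosolic one-carbon, methionine and proline genes, 10 were higher and 6 lower in 2+5 than in 1+4, 9 higher and 6 lower in 3+6 than in 1+4, and 9 higher and 3 lower in 3+6 than in 2+5. Against 1+4, Prodh, which degrades proline, differed by -1.69 in 2+5, and Ass1, which makes argininosuccinate, by 1.60 in 3+6. Both were low, with means of 1.48 CPM in 1+4 and 0.403 in 2+5 for Prodh. For Ass1 they were 1.25 CPM in 1+4 and 3.71 in 3+6. Got1, the cytosolic aspartate aminotransferase, differed by -1.03 in 2+5 against 1+4. Of 13 other amino acid transporters tested, 6 were higher and 2 lower in 2+5 than in 1+4, 6 higher and 5 lower in 3+6 than in 1+4, and 3 higher and 5 lower in 3+6 than in 2+5. Slc1a2, Slc38a1 and Slc38a4 were higher in 3+6 than in 1+4 by 1.74, 1.34 and 1.11, against -2.65 for Slc7a11. Slc1a2 averaged only 0.445 CPM in 1+4 and 1.51 in 3+6, where Slc7a11 averaged 64.4 and 10.4.

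Whether the differences between sets depended on the labelled time was tested. In that test of set by time, edgeR called 0 of the 36 members and 0% of all genes, with 1 member (Fgf21) and 2.81% of all genes at an unadjusted p under 0.05. Numbers 1 to 3 and numbers 4 to 6 each hold 1 number of every set. Whether they gave different differences was also tested, with 0 members and 0.00676% of all genes called. At an unadjusted p under 0.05 stood 7 members (Atf4, Atf5, Psat1, Shmt2, Pck2, Aars and Gars) and 8.37% of all genes.

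Computed apart in the 2 runs of numbers, the log2 difference of 3+6 against 1+4 was -2.70 and -2.60 for Slc7a11, -1.99 and -1.97 for Trib3, and 0.24 and 0.21 for Tars. For Atf4 it was -0.17 and -0.36. Members called in both runs in the same direction were 31 of 36 for 2+5 against 1+4, 30 for 3+6 against 1+4 and 15 for 3+6 against 2+5. Among all genes these shares were 37.1%, 37.3% and 32%. The sets were formed because their numbers resemble each other in these data, so agreement between the 2 runs is built in and is no independent support. From the 0 h libraries alone, the members called were 29, 30 and 21, beside 7100, 6993 and 6651 genes in all. From the 4 h libraries alone they were 28, 27 and 15, beside 4873, 4891 and 4392 genes, and from the 24 h libraries alone 21, 25 and 10, beside 3698, 4522 and 3414 genes.

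Markers of other cells and of brown fat moved with the sets too. The summed level of 12 preadipocyte and fibroblast markers was 828 to 964 CPM in 1+4, 1065 to 1535 in 2+5 and 1585 to 1984 in 3+6, without overlap. Most of that sum was collagen: Col1a1 and Col3a1 averaged 434 and 335 CPM in 1+4, 551 and 440 in 2+5, and 869 and 546 in 3+6. Of 8 markers tested, 7, 8 and 7 were higher in the 3 comparisons. Among them were Dcn (log2 1.32 in 3+6 against 1+4), Pdgfra (1.21) and Dlk1 (1.12). Dlk1 averaged only 0.849 CPM in 1+4 and 1.78 in 3+6. Dpp4 was at 0 in 15 libraries. Pi16, below the filter, went the other way, with means of 0.508, 0.227 and 0.153 CPM in 1+4, 2+5 and 3+6. The summed smooth muscle markers were 29.3 to 32.3, 32.5 to 56.7 and 63.2 to 85.9 CPM, with Acta2 and Tagln higher in 3+6 than in 1+4 by 1.41 and 1.91, and Des lower (log2 -0.24). Acta2 alone averaged 20.7, 28.4 and 55.6 CPM in the 3 sets, while Myh11 averaged 1.53, 1.36 and 1.13. Brown adipocyte markers summed to 4239 to 4429 CPM in 1+4, 3133 to 3623 in 2+5 and 3463 to 4243 in 3+6. Fabp4 alone averaged 2769, 1951 and 2184 CPM in these sets. Against 1+4, Ucp1 was lower in 2+5 and 3+6 (log2 -0.59 and -3.09). So were Dio2 (-2.88 and -2.16) and Plin1 (-1.81 and -1.11), while Adipoq was higher (0.43 and 0.81). Of the 11 tested, 3 were higher and 6 lower in 2+5 than in 1+4, and 2 higher and 6 lower in 3+6 than in 1+4. Between 3+6 and 2+5, 6 were higher and 3 lower. Of all genes 59.5%, 59.7% and 57.1% were called in these comparisons. Cidea averaged 14.2, 13.9 and 15.2 CPM in 1+4, 2+5 and 3+6, and Lipe 278, 302 and 309. By labelled time, 0 of the 11 brown adipocyte markers tested were called in each comparison, beside 0% of all genes. Their log2 differences from 0 h ran from -0.06 to 0.12 at 4 h and from -0.09 to 0.17 at 24 h. Macrophage and endothelial markers summed to at most 4.41 and 1.80 CPM in any library. The part of these markers in the differences of the members was not tested, and in bulk RNA fewer cells of a type and less RNA per cell cannot be told apart.

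Members with and without the response element letters in their windows were set side by side. In 2+5 the median log2 difference was -0.35 for the 14 members with the letters and -0.29 for the 16 without. In 3+6 it was -0.45 and -0.48, and between 3+6 and 2+5 -0.05 and -0.15. Among those with the letters were Slc7a11 and Fgf21, with the lowest log2 values, and also Tars, Pck2 and Pycr1, the highest in some comparison. Of these, Fgf21 passed the filter on low counts only through 1+4.

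Some members overlap other annotated genes, and whether the counting used the strand is not stated in the labels. All figures here are of whole gene spans, introns included. Slc7a11 shares 8812 bases with the antisense gene Gm37854, Pck2 shares 2134 with the antisense gene Gm10876, and Slc7a5 shares 26545 with Gm20388 on the other strand. Ddit3 and Mars lie on opposite strands and overlap by 68 bases, and a second annotated gene with the symbol Ddit3 shares 2925 bases on the same strand. Aars shares 1326 bases with Exosc6 and Sesn2 6089 with Gm12981, each on the same strand. Atf5 shares 571 bases with Nup62 and 272 with Il4i1 on the other strand. Values of these members are uncertain to that extent.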

How the data were processed

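RNA of 18 libraries (total RNA, ribosomal RNA depleted, read pairs) was analysed. The authors deposited a table of expected counts per gene, estimated by salmon per its labels. Per the submitters' processing notes edgeR, limma and mm10 were used, with no versions. Not given in the sources used here are salmon's version, its annotation and whether strand was used. Expected counts were rounded to whole numbers and filtered by filterByExpr (minimum count 10, minimum total 15), leaving 14788 genes. Libraries were scaled with edgeR's TMM method, and CPM were computed from the scaled totals. Log2 CPM for shares of variance used a prior count of 2.

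Robust quasi-likelihood fits in edgeR (glmQLFit, glmQLFTest) covered all genes and 18 libraries, with labelled time alone for comparisons of times and, in a separate fit, set plus time for comparisons of sets. P-values are two-sided and adjusted by Benjamini-Hochberg over all genes, with a threshold of 0.05. Intervals are 95% intervals of the model, and SE is the standard error of a log2 difference. Alternatives were the replicate number as a block, DESeq2, limma-voom, other scalings, no filter, a fold change threshold of 1.5, parts of the libraries, and each library left out. The scripts were tested on simulated counts.

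The numbers in the titles were used to pair libraries for the block. Deviations from the means of the times correlated between 0.297 and 0.718 in all 18 pairs with the same number at different times. At different times, pairs with the other number of the same set had a median of 0.569. Pairs from other sets had a median of -0.270. The resemblance thus held within a set, and these values do not show that a number marks a matched unit. No label ties a number to a culture or a day. No 2 libraries agreed within sampling noise, the lowest chi-square per degree of freedom within a time and set being 3.29.

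The members, the sets and all lists were chosen with earlier results of these data known. Every member is named. Values by library are given for 14 members fixed by name and for those that were, among the members called in a comparison of sets, the 3 highest and 3 lowest by log2 difference. From each other list up to 3 genes called with the largest difference are named. Gene positions are from GENCODE M21. Promoter sequences are from RefSeq (GRCm38.p6). The sites of 1 member are counted in the totals and not reported here. Python 3.11.15 with pandas 2.3.3, numpy 2.4.6 and matplotlib 3.10.9 drew figures and searched promoters. Fits ran in R 4.3.3 with DESeq2 1.42.0, limma 3.58.1 and edgeR 4.0.16.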

Additional observations from a re-analysis of the deposited data

Results flagged for a closer look

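In 108 groups of 6 libraries (36 members in 3 sets), 7 held a highest or lowest library whose gap to the next exceeded 0.625 of the group's range (6.48%). Chance gives about 1 in 20. In set 1+4, 24 h replicate 4 was the lowest library for Trib3 (49.3 CPM, the next 62.8), Vldlr (173, the next 192) and Pycr1 (5.84, the next 6.56). In set 3+6, 24 h replicate 6 was the lowest for Pycr1 (6.04, the next 7.11) and 0 h replicate 3 the lowest for Tars (65.6, the next 72.0). In set 2+5, 0 h replicate 2 was the lowest for Gdf15 (7.01, the next 8.31). In the same set 24 h replicate 5, the library rich in ribosomal RNA, was the highest for Cth (10.3, the next 6.88).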

How the results depend on the processing

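Comparisons of sets are given in the order 2+5 against 1+4, 3+6 against 1+4 and 3+6 against 2+5. With all libraries 8806, 8833 and 8440 genes (59.5%, 59.7% and 57.1%) and 34, 30 and 21 of 36 members were called. From the 24 h libraries alone, 3698, 4522 and 3414 genes were called, with 21 and 10 members in the first and last comparison. From the 4 h libraries alone, 4873, 4891 and 4392 genes were called. From the 0 h libraries alone, 7100, 6993 and 6651 genes and 29, 30 and 21 members were called. Each of these settings has 6 libraries, and the cause of the lower counts at 4 h and 24 h was not tested. Tested against a fold change of 1.5, 1254, 1433 and 1055 genes and 8, 13 and 5 members were called. Scaled by library totals, 3788, 4536 and 5130 genes and 18, 16 and 11 members were called, and the share of called genes that were higher was 35.6%, 75% and 85.9%, against 49.7%, 50.6% and 50.1% with TMM. The reversed values there were 0.020 for Iars (3+6 against 1+4), and 0.12 for Atf4 and 0.011 for Gdf15 (3+6 against 2+5). The part of 24 h replicate 5 in the values by library totals that involve 2+5 was not tested. No other setting reversed a member given by library. Leaving out each library gave 32 to 34, 30 to 31 and 20 to 23 members, with the shares of all genes in those runs not given here.

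With the replicate block, 24 h against 0 h had 1 gene called, with and without 24 h replicate 5, the second chosen after the data were seen. The block changed no call of members by time. In comparisons of sets, number as 6 levels (a replicate block) gave 34, 31 and 22 members, beside 8885, 8913 and 8523 genes. Leaving out each library gave 0 to 1 genes at 4 h against 0 h and at 24 h against 4 h, the 1 without 4 h replicate 3. Depth limits Fgf21 (0 to 24 counts) most.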
